A study of Homo sapiens with 16 samples.

Results

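The peaks described here lie on both sides of the centromere of human chromosome 10, in a window from 38000000 to 43500000 of hg19, and were taken from 4 lists of γ-tubulin ChIP-seq peaks. The window spans the short arm, the assembly gap that stands for the centromere from 39254935 to 42254935, and the long arm, and every chromosome 10 peak that overlaps it is a member. It was picked from where the peaks of these same lists gathered, so that the numbers and positions below are descriptions. In total, 320 of the 2962 listed peaks were members. MCF10A cells had 114 of 1035 at 1 h and 182 of 1547 at 2 h, whereas γTubulinsh-MCF10A cells had 23 of 296 at 1 h and 1 of 84 at 2 h.

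MCF10A is an established line of human breast epithelial cells. The γTubulinsh-MCF10A cells are MCF10A cells that were stably transfected with γ-tubulin shRNA and kept under Zeocin, and they were compared with cells that had neither, so that the shRNA, the transfection and the selection cannot be told apart. All cells went through a double thymidine block, which gathers cells at the start of S-phase, and were harvested 1 h or 2 h after release. Each condition had 2 ChIP libraries and 2 whole cell extract libraries, 16 libraries in all. The authors deposited 1 list per condition, made from both ChIP libraries together, and therefore no value below has a replicate error and no difference between lists was tested. How many reads each library held is not given in the lists. The study examined γ-tubulin protein in both cell populations by Western blot, which was not used here.

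γ-Tubulin nucleates microtubules at the centrosome and is also found in the nucleus. The pericentromere is the DNA beside the centromere, rich in satellite repeats and in segments copied from other places of the genome, and it is packed as heterochromatin for much of the cell cycle. Centromeric repeats are so alike that the assembly leaves a gap for most of them, and a read can be given a unique position only beside this gap. Pericentromeres are also known for collapsed copies, places where several copies in the cell share 1 copy of the reference, and reads then pile up there in whole cell extract as well as in ChIP. In the gene order of the GRCh38.p14 annotation of RefSeq, ZNF37A is the last protein-coding gene of the short arm and ZNF33B the first of the long arm, both genes of zinc finger proteins, with 26 annotated pseudogenes and long non-coding RNAs between them. These genes were named after the peaks had been seen, for orientation only. No hg19 annotation or sequence was used here, so no gene was assigned to a peak.

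The chromosome 10 pericentromere held 11.0% of all nuclear peaks in the MCF10A 1 h list and 11.9% in that of 2 h. The share was 7.99% for γTubulinsh-MCF10A at 1 h, and 1.27% at 2 h. Nearly all chromosome 10 peaks were in it, as only 14 (1 h) and 13 (2 h) peaks of the chromosome lay elsewhere in MCF10A cells, and 4 and 0 in γTubulinsh-MCF10A cells. The short arm side had 38 peaks in MCF10A cells at 1 h and 70 at 2 h, while γTubulinsh-MCF10A cells had 1 there at 1 h and none at 2 h. The long arm side had 76, 112, 22 and 1 in the same order. The long arm side thus held more peaks than the short arm side in each list. It held 66.7% of the MCF10A members at 1 h and 61.5% at 2 h, and of the γTubulinsh-MCF10A members 95.7% at 1 h and the only one at 2 h. This order depended on counting neighbours one by one. With neighbours up to 1000 bp apart merged into 1, the short arm side had the larger number in MCF10A cells, 28 against 18 at 1 h and 39 against 23 at 2 h, while in γTubulinsh-MCF10A cells the long arm side kept the larger number, 17 against 1 at 1 h.

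**Figure D1:**
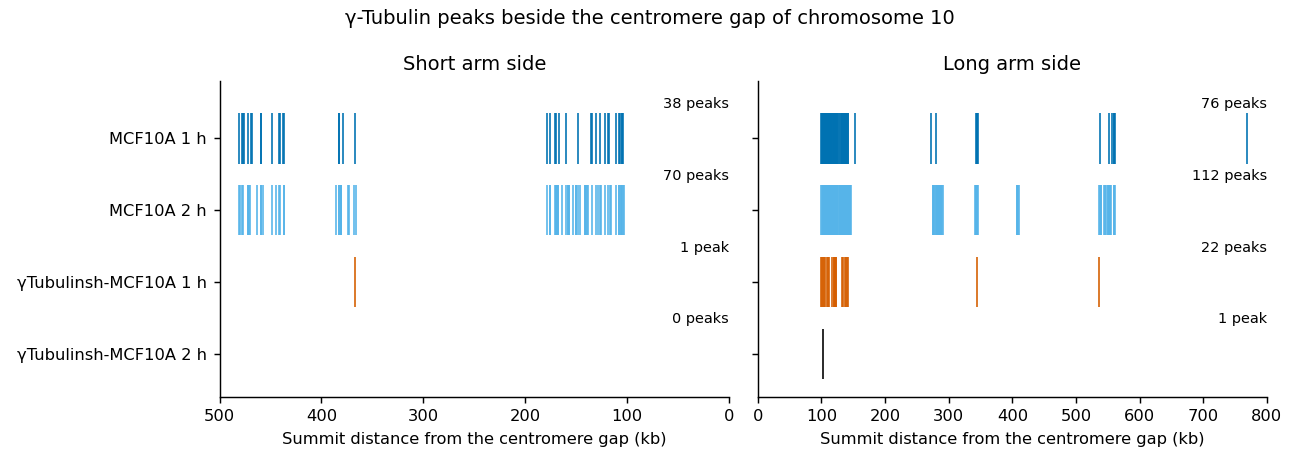
Each line is the summit of 1 peak, at its distance in kb from the nearer border of the centromere gap (short arm side on the left, long arm side on the right), in 1 row per list. Peaks stood in separate blocks, and the 1 peak left in γTubulinsh-MCF10A cells at 2 h was in the block next to the gap on the long arm side.

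No other chromosome 10 peak lay near the outer edges of the window. The outermost members were chr10:38774150-38774325 in MCF10A cells at 1 h on the short arm side and, in the same list, chr10:43023101-43023216 on the long arm side, with scores of 54 and 177. The score is the one given by the authors, 10 times the −log10 q-value of the peak. Just outside the window, the nearest short arm peak of MCF10A cells at 1 h was 6425291 bp away, from 31574590 to 31574709 (score 244), and the nearest long arm peak 8613577 bp away, from 52113577 to 52113690 (score 106). The MCF10A 2 h list gave distances of 6425288 and 13333124 bp, and the γTubulinsh-MCF10A 1 h list 27849938 and 36351173 bp. These distances were counted from the edges of the window, inside which all members lay. The members were therefore separated from all other chromosome 10 peaks by more than 6425288 bp.

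Counted from the gap borders given above, the nearest peaks of MCF10A cells were at similar distances from the gap on both sides. The last short arm peak before it ran from 39151143 to 39151266 at 1 h, 103669 bp from the gap, and from 39151957 to 39152077 at 2 h, 102858 bp from it. The first long arm peak after it was chr10:42354960-42355272 at 1 h and chr10:42354949-42355289 at 2 h, 100025 and 100014 bp away. The first long arm peak of γTubulinsh-MCF10A cells at 1 h, chr10:42355042-42355195, lay inside both of these. Its summit was at 42355056, compared with 42355052 and 42355054 in MCF10A cells. By contrast, their only short arm peak, chr10:38887901-38888038 at 1 h, was 366897 bp from the gap. Whether the assembly lacks further sequence between these peaks and the gap was not examined, so the distances do not tell how near to it peaks could lie.

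The number of peaks was set beside that of the other nuclear peaks, since the lists differ in length throughout the genome. At 1 h MCF10A cells had 3.46 times as many long arm peaks as γTubulinsh-MCF10A cells (76 and 22), close to the ratio of 3.48 for the nuclear peaks outside the window (921 and 265). With neighbours up to 1000 bp apart merged, the long arm numbers were 18 and 17, with no merged number of the other nuclear peaks set beside them. The unmerged short arm numbers were 38 and 1. The short arm side therefore stood further apart between the cell populations at 1 h than either the long arm side or the rest of the nucleus, with a single peak behind the smaller number. At 2 h both sides differed more than the rest, with 112 long arm peaks against 1, and 70 short arm peaks against none, while the other nuclear peaks numbered 1349 and 78, a ratio of 17.3.

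From 1 h to 2 h the number of peaks in MCF10A cells went up by 32 on the short arm side, to 1.84 times that at 1 h, and by 36 on the long arm side, to 1.47 times. The other nuclear peaks went up 1.46 times. In γTubulinsh-MCF10A cells the number went down over the same hour, from 1 to 0 on the short arm side and from 22 to 1 on the long arm side, whereas the other nuclear peaks went to 0.294 of their number. Taking the MCF10A 1 h list as 1, the ChIP reads kept were estimated at 1.11 for MCF10A at 2 h, and at 0.952 (1 h) and 1.20 (2 h) for γTubulinsh-MCF10A. The deeper list at 2 h was thus the longer one in MCF10A cells and the shorter one in γTubulinsh-MCF10A cells. The part of depth in these numbers was not tested.

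When members no more than 20000 bp apart were joined across the lists, they formed 9 blocks, and the same number was found with 10000 or 50000 bp. Whether any space between blocks is a further gap of the assembly was not examined. The short arm side had 3 blocks and the long arm side 6. Block borders were set after the peaks had been seen. The block with the most peaks was the first one after the gap on the long arm side, from 42354949 to 42408349, 53401 bp long. It held 63 MCF10A peaks at 1 h and 67 at 2 h, and 20 γTubulinsh-MCF10A peaks at 1 h and the 1 left at 2 h. Peaks covered 33.2% and 47.3% of its length in MCF10A cells (1 h and 2 h) and 5.39% in γTubulinsh-MCF10A cells (1 h).

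The other blocks gained most of the peaks that MCF10A cells had at 2 h and not at 1 h. The last short arm block before the gap, chr10:39076710-39152077, went from 20 to 42 peaks. The outer short arm blocks, chr10:38774150-38818490 and chr10:38869074-38888828, went from 14 to 18 and from 4 to 10. Among the long arm blocks, the one from 42527339 to 42546153 went from 2 to 18 and the block from 42790543 to 42816989 from 6 to 16. A small block from 42661953 to 42665023 had 4 peaks at 2 h and none in the other lists, and the outermost one was the single peak chr10:43023101-43023216 of MCF10A cells at 1 h.

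**Figure D2:**
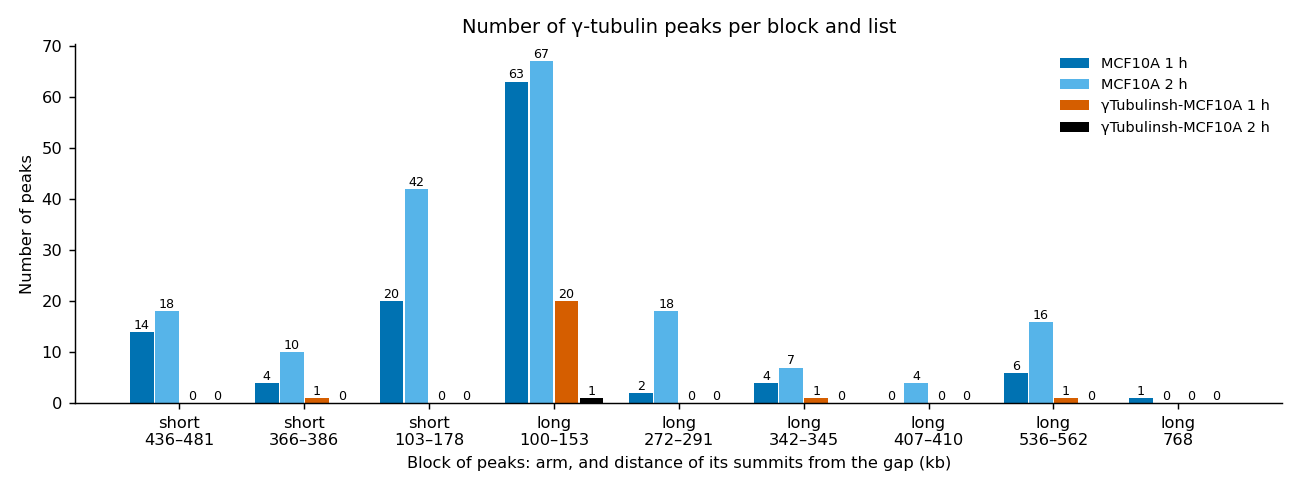
Bars give the number of peaks in each of the 9 blocks (arm and summit distance from the gap in kb on the x axis) for the 4 lists. The block nearest to the gap on the long arm side changed from 63 to 67 peaks between 1 h and 2 h in MCF10A cells, while the last short arm block went from 20 to 42 and the next long arm block from 2 to 18.

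The same is seen when the MCF10A 2 h peaks are split by overlap with a peak at 1 h. Of all nuclear peaks of that list, 55.8% had no peak of MCF10A cells at 1 h under them. In the first long arm block it was 14 of 67 peaks (20.9%). In the last short arm block 30 of 42 (71.4%) had none, and in the long arm block from 42527339 to 42546153 it was 17 of 18 (94.4%). The other blocks with more than 4 peaks had 42.9% to 80%. The longest run of places with peaks of MCF10A cells at 2 h alone fell in that long arm block, 13 places in a row from 42535846 to 42546153. The longest such run of the short arm side was 7 places from 39096718 to 39105350. Runs of MCF10A 1 h alone were short, at most 2 places in a row.

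Peak lengths differed by side in MCF10A cells. At 1 h the short arm peaks were 110 to 194 bp long, with a median of 121.5 bp, and the long arm peaks 111 to 1089 bp, with a median of 191.5 bp. At 2 h the medians were 152.5 bp (120 to 412) and 236 bp (120 to 2105). The greater length lay mainly in the first long arm block, with medians of 231 bp (1 h) and 290 bp (2 h). In the long arm blocks that begin at 42527339 and 42790543 they were 127 and 154.5 bp at 1 h, and 174.5 and 159.5 bp at 2 h. The small block that begins at 42596792 had 139 and 249 bp. The shortest peaks were alike on both sides, and only the long arm side had peaks over 412 bp. The other nuclear peaks had medians of 150 bp at 1 h and 180 bp at 2 h, between those of the sides. The long arm peaks of γTubulinsh-MCF10A cells at 1 h were 106 to 224 bp long, with a median of 139 bp, the same as for the other nuclear peaks of that list. Together the members covered 24831 bp (1 h) and 46119 bp (2 h) for MCF10A, and 3323 bp and 183 bp for γTubulinsh-MCF10A.

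The longest member belonged to MCF10A cells at 2 h, chr10:42368879-42370983, 2105 bp long in the first long arm block, and it also had the highest score of all members. Its score was 383 and its fold enrichment, the ratio of ChIP reads over the summit to the local control with 1 added to each, was 9.43, and it ranked 16 among the nuclear peaks of its list by score. At 1 h the longest peak of MCF10A cells was next to it, from 42371064 to 42372152 and 1089 bp long, with a score of 157. γTubulinsh-MCF10A cells at 1 h had their longest member at the same place, from 42371173 to 42371396 and 224 bp long, with a score of 80. The summits of these last 2 peaks were 1 bp apart, at 42371260 and 42371259, and MCF10A cells at 2 h had a summit at 42371249 under a further peak of 364 bp with a score of 256. The longest short arm peak was chr10:38880744-38881155 in MCF10A cells at 2 h, 412 bp long with a score of 177.

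Summits stood more closely on the long arm side. In MCF10A cells at 1 h, neighbouring summits were a median of 2972 bp apart on the short arm side (37 distances) and 648 bp on the long arm side (75 distances). At 2 h the medians were 1497 bp (69 distances) and 706 bp (111 distances). The share of distances under 1000 bp was 21.6% on the short arm side and 72% on the long arm side at 1 h, and 36.2% and 73.0% at 2 h. The median thus went down on the short arm side, where the same stretch held 38 peaks at 1 h and 70 at 2 h. The long arm summits of γTubulinsh-MCF10A cells at 1 h were a median of 1952 bp apart (21 distances). Within the first long arm block alone the medians were 535 bp (1 h) and 603 bp (2 h) for MCF10A and 1566 bp for γTubulinsh-MCF10A (1 h). The long arm block that begins at 42790543 had 1877 and 1427 bp in MCF10A cells. The short arm blocks had 2206 to 3023 bp at 1 h and 1160 to 1682 bp at 2 h. With neighbours up to 1000 bp apart merged, the order of the sides turned. The long arm side then had 6236 bp against 4276 bp at 1 h, and 3786.5 bp against 3441.5 bp at 2 h. The centromere gap was never counted as a distance.

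**Figure D3:**
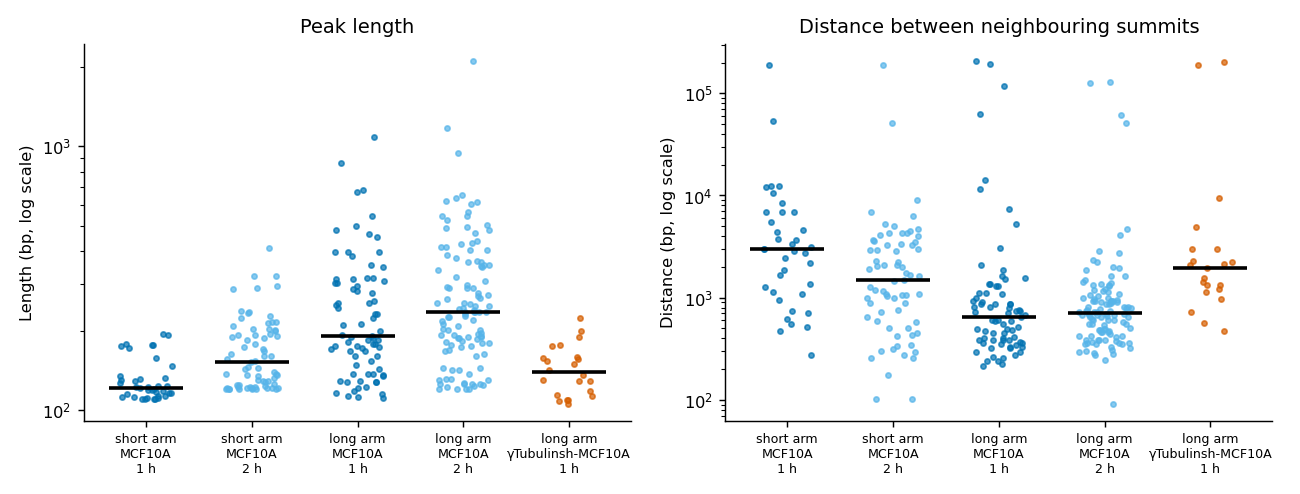
Points are single peaks (left, length in bp) or pairs of neighbouring summits (right, distance in bp), on log axes, by arm and list, and black lines mark medians. Long arm peaks of MCF10A cells were longer than short arm peaks (medians of 191.5 and 121.5 bp at 1 h) and closer together (648 and 2972 bp). At 1 h the first long arm block held 63 of the 76 long arm peaks.

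The fold enrichment, in contrast, was higher on the short arm side. In MCF10A cells at 1 h it had a median of 4.37 (1.95 to 7.75) on the short arm side and 2.76 (1.46 to 8.21) on the long arm side, compared with 3.26 for the other nuclear peaks of the list. At 2 h the medians were 5.40 (1.94 to 8.89), 3.29 (1.37 to 10.1) and 3.76. A peak's fold enrichment and p-value together fix how many ChIP reads lay over its summit and how high the control was there, and whole reads came out for 100% of the peaks in each list. By these values, the short arm summits had fewer reads and a far lower control. At 1 h the medians were 27 reads on the short arm side and 79 on the long arm side, and the control background was 3.46 and 16.9 times the lowest of the list. At 2 h it was 24 and 62 reads, with 2.10 and 9.70 times the lowest control of that list. The control of the long arm side reached 100.8 times the lowest at 1 h and 97.5 times at 2 h.

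In γTubulinsh-MCF10A cells the control of the short arm side was known at 1 peak only. At 1 h the 22 long arm peaks had a median control of 25.1 times the lowest of the list (4.51 to 101.2) and a fold enrichment of 2.12 (1.53 to 3.73), close to the other nuclear peaks of that list with 23.2 times and 2.46. The only short arm peak had a control of 3.22 times the lowest, 20 reads and a fold enrichment of 4.09. The long arm peak chr10:42790543-42790717 of the same list was near it, with 4.51 times, 22 reads and 3.39. Among the long arm members of MCF10A cells at 1 h, those that overlapped a γTubulinsh-MCF10A peak had a median control of 25.6 times the lowest, and those that did not had 15.6 times. The order was the same over all nuclear peaks of the list, with 17.9 and 9.22 times. The 1 overlapping short arm member had 1.46 times, below the 3.46 times of the others. The part of the control in the difference between the cell populations was not tested.

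Within the first long arm block the control had a low level nearer to the gap and a high level farther from it, with a step about 25 kb into the block. In windows of 5 kb over the first 25 kb, the median control was 8.93 to 13.2 times the lowest for MCF10A at 1 h and 3.67 to 7.07 times at 2 h, and 10.5 to 31.9 times for γTubulinsh-MCF10A at 1 h. Beyond 25 kb these medians were 21.9 to 69.2, 36.7 to 62.9 and 44.7 to 90.5 times. No steady course was seen on either side of the step. The fold enrichment medians were 2.55 to 4.15, 3.58 to 6.38 and 2.02 to 3.32 over the first 25 kb, and 1.72 to 2.59, 1.75 to 2.16 and 1.56 to 1.78 beyond it. Cut at the midpoint of the block, 42381649, the reads over the summits had medians of 60 and 144.5, 49 and 143, and 59.5 and 137.5 in the nearer and the farther part. The 3 lists with peaks in both parts thus had more reads and a lower fold enrichment in the farther part. Windows held 1 to 11 peaks of a list, and they and the midpoint were set after the values had been seen.

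**Figure D4:**
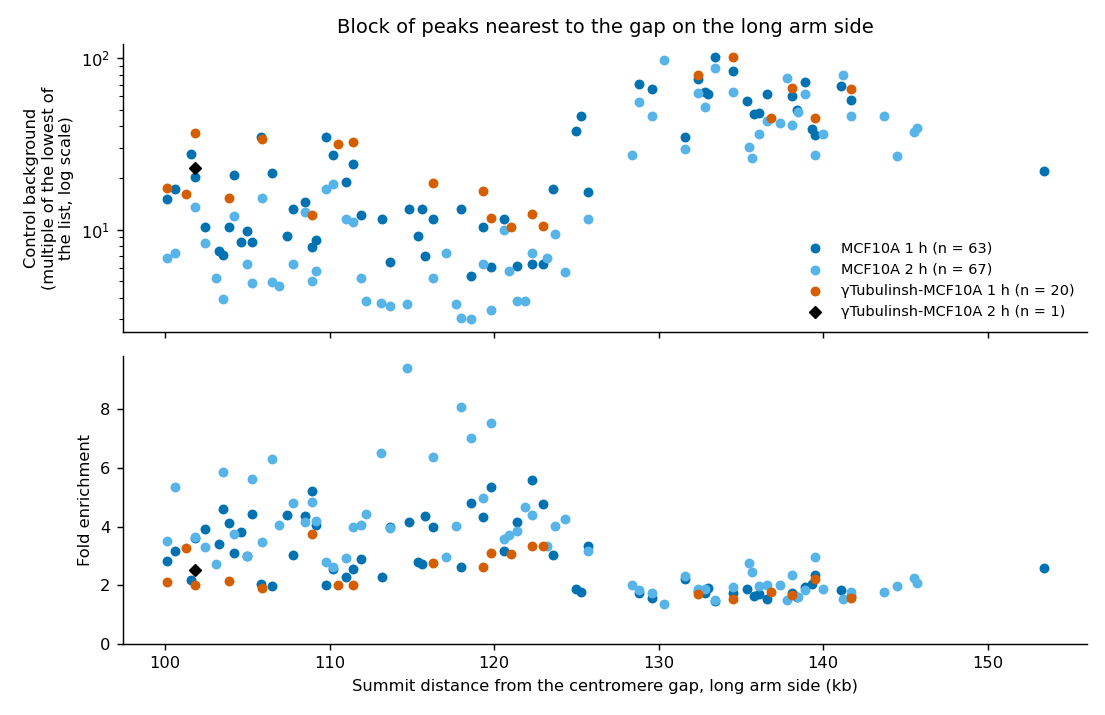
Each point is 1 peak of the first long arm block, at its summit distance in kb from the gap, with the control background (top, multiple of the lowest in the list, log axis) and the fold enrichment (bottom) for the 4 lists. In the part farther from the gap than the midpoint of the block the control medians were 44.3 to 66.1 times the lowest and the fold enrichment medians 1.69 to 1.91.

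Some other blocks stood at the extremes of the control. The long arm block from 42596792 to 42600476, 3685 bp long, had 4 (1 h) and 7 (2 h) MCF10A peaks and 1 γTubulinsh-MCF10A peak (1 h), with median controls of 62.8, 52.4 and 79.9 times the lowest. The block from 42790543 to 42816989 had higher fold enrichments in MCF10A cells than the other long arm blocks, with medians of 5.21 at 1 h and 5.52 at 2 h. Its controls were 2.02 and 1.57 times the lowest. The highest fold enrichments of single MCF10A members also lay there, 8.21 at chr10:42806802-42806962 at 1 h and 10.1 at chr10:42808116-42808307 at 2 h. Short arm peaks reached 7.75 at chr10:38795070-38795182 at 1 h and 8.89 at chr10:38817744-38817934 at 2 h. Thus the long arm side was not of 1 kind, and its blocks farther out included peaks with as low a control as those of the short arm side.

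The score singled out other members. The highest short arm scores of MCF10A cells at 1 h were 162 at chr10:38776376-38776487, where 38 reads lay over the summit, and 132 at chr10:38795070-38795182. At 2 h they were 237 at chr10:38881836-38881987 and 191 at chr10:39084794-39084992. The highest long arm scores were, at 1 h, 245 at chr10:42363385-42363639, rank 25 of its nuclear list, and 219 at chr10:42356638-42357135. At 2 h they were 383 and 256 at the neighbouring peaks described above. In γTubulinsh-MCF10A cells at 1 h the highest were 123 at chr10:42363737-42363845 and 116 at chr10:42356114-42356290. All of these long arm peaks lay in the first block after the gap.

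Overlap by at least 1 bp made a peak a shared one. Of the MCF10A 1 h members, 94 of 114 (82.5%) had such an overlap with the MCF10A 2 h list, compared with 72.1% of all nuclear peaks of the list. The sides differed, with 24 of 38 (63.2%) on the short arm side and 70 of 76 (92.1%) on the long arm side. In the other direction, 86 of the 182 MCF10A 2 h members (47.3%) were shared with the 1 h list, close to the 44.2% of all nuclear peaks. Again fewer were shared on the short arm side (24 of 70, 34.3%) than on the long arm side (62 of 112, 55.4%). The larger long arm share lay mainly in the first block after the gap, where 20.9% of 67 peaks were not shared. In the long arm blocks that begin at 42527339, 42596792, 42661953 and 42790543 it was 94.4%, 42.9%, 100% and 75%. The MCF10A 1 h members found again at 2 h had a median control of 4.90 times the lowest on the short arm side, where the others had 2.29 times, and of 17.3 times on the long arm side, where the 6 others had 15.6 times. Over all nuclear peaks of the list the medians were 15.6 and 3.46 times. The part of the control in the difference between the sides was not tested.

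Between the cell populations, 21 of the 23 γTubulinsh-MCF10A 1 h members (91.3%) were shared with MCF10A cells at that time, beside 73.6% of all nuclear peaks of the list. With the MCF10A 2 h list, all 22 long arm peaks and not the 1 short arm peak were shared, beside 78.1% of all nuclear peaks. In the other direction, 21 of the 114 MCF10A 1 h members (18.4%) overlapped a γTubulinsh-MCF10A peak, a share near the 19.5% of all nuclear peaks. It was 1 of 38 (2.63%) on the short arm side and 20 of 76 (26.3%) on the long arm side. At 2 h the single γTubulinsh-MCF10A member was shared with MCF10A cells, as were 65.8% of the nuclear peaks of its list, and 1 of the 182 MCF10A members (0.549%) overlapped it, compared with 3.27% of all nuclear peaks. Between the times in γTubulinsh-MCF10A cells, 1 of the 23 members at 1 h (4.35%) overlapped a peak at 2 h, where 13.2% of all nuclear peaks did, and the member at 2 h overlapped one at 1 h, as did 51.9% of the nuclear peaks.

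**Figure D5:**
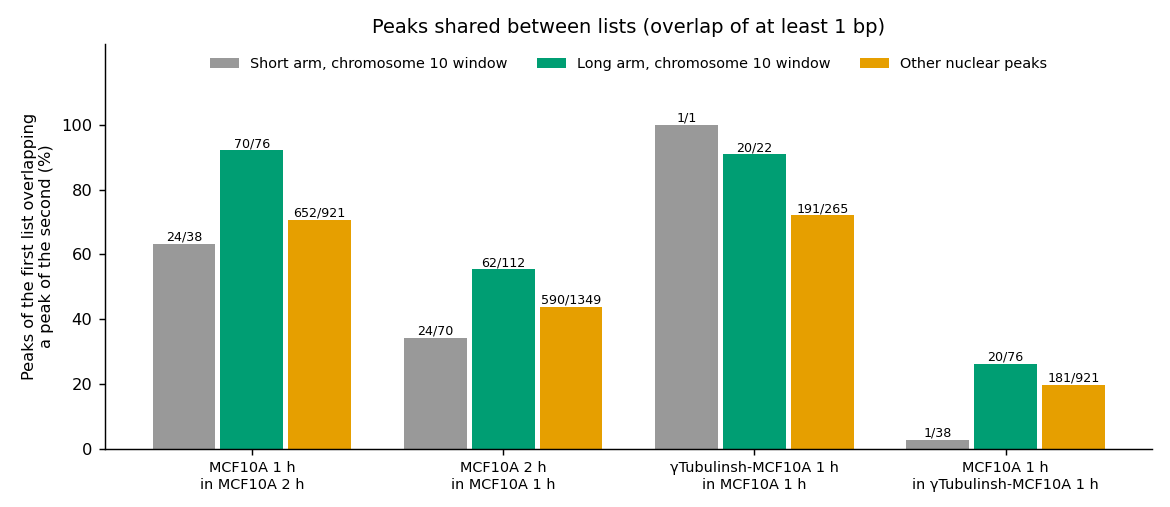
Bars give the percentage of peaks of the first list that overlapped a peak of the second by at least 1 bp, for the short arm side, the long arm side and the nuclear peaks outside the window, with the numbers above each bar. The long arm side had a larger share than the short arm side in 3 of the 4 comparisons, the exception being the comparison with a single short arm peak. For the MCF10A 2 h list the larger long arm share lay mainly in the first block after the gap.

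Where peaks were shared, their summits lay close together. Between MCF10A cells at 1 h and 2 h the distance of the summits had a median of 7 bp on the short arm side (24 peaks) and 10.5 bp on the long arm side (70 peaks), and it was within 50 bp for 19 and 50 of them. Between γTubulinsh-MCF10A and MCF10A cells at 1 h the median was 6.5 bp for the 20 shared long arm peaks, of which 15 were within 50 bp. In bases, peaks of both MCF10A lists had 2828 bp in common on the short arm side, 56.4% of the bases covered at 1 h and 23.5% of those at 2 h. On the long arm side they had 17663 bp in common, 89.2% and 51.9%. Thus most of the bases under long arm peaks at 1 h were under peaks at 2 h too, and the 2 h peaks reached beyond them.

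At summits within 50 bp of each other, the reads and the control were set side by side. At the 15 such pairs of γTubulinsh-MCF10A and MCF10A cells at 1 h, all on the long arm side, the ChIP reads were in a ratio of 0.980 (median, from 0.683 to 1.08), whereas the control background was in a ratio of 1.35 (0.978 to 1.77). The control was higher in γTubulinsh-MCF10A cells at 14 of the 15, and the fold enrichment was lower at all 15. For MCF10A cells at 2 h over 1 h the median ratio of reads was 0.950 at 50 long arm pairs and 0.875 at 19 short arm pairs, and that of the control 0.823 and 0.727. The lists therefore differed more in the control than in the ChIP reads at these summits. Only peaks called in both lists enter this comparison, the control was scaled by the peak caller to the reads of its own ChIP, and a summit without a peak has no value in a list. Whether the numbers of peaks followed the control was not tested.

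The overlapping peaks of all lists made up 198 places, 84 on the short arm side and 114 on the long arm side. Of these, 113 had a peak of 1 list alone, 66 of 2 lists, 18 of 3 lists and 1 of all 4. Places with MCF10A 2 h alone were the most numerous, 46 on the short arm side and 48 on the long arm side, and those with MCF10A 1 h alone numbered 13 and 6. Places with both MCF10A lists and no other numbered 24 and 39. All 18 places with peaks of 3 lists were on the long arm side, and each had MCF10A cells at both times and γTubulinsh-MCF10A cells at 1 h. Places were not counted over the other nuclear peaks. These numbers therefore do not tell whether the window differed from the rest of the nucleus.

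The place found in all 4 lists ran from 42355980 to 42357154, near the border of the first long arm block that faces the gap. MCF10A cells at 2 h had 1 peak of 1175 bp there, with its summit at 42356727, a score of 190, 87 reads and a fold enrichment of 3.65. At 1 h MCF10A cells had a peak from 42356638 to 42357135, with its summit at 42356742, a score of 219, 104 reads and a fold enrichment of 3.59, and a weaker one beside it from 42356118 to 42356571 with a score of 59. γTubulinsh-MCF10A cells had peaks at both of these positions at 1 h, from 42356114 to 42356290 (score 116, fold enrichment 3.28) and from 42356734 to 42356846 (score 50, fold enrichment 2.02). At 2 h they had the peak from 42356663 to 42356845, 183 bp long, with its summit at 42356745, a score of 95, 103 reads and a fold enrichment of 2.52. The summit of this last member was 3 bp from that of MCF10A cells at 1 h, and all of its 183 bp lay inside MCF10A peaks of both times. At the summits from 42356727 to 42356774 the control was 20.2 (1 h) and 13.6 (2 h) times the lowest of the list in MCF10A cells. In γTubulinsh-MCF10A cells it was 36.7 and 22.9 times there. The order was the other way round at the peaks that begin at 42356118 and 42356114 at 1 h. Their controls were 27.7 times the lowest in MCF10A cells and 16.1 times in γTubulinsh-MCF10A cells.

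At the other places with peaks of 3 lists the summits often, but not always, matched in position. At chr10:42363736-42363926 the summits were at 42363824 (1 h) and 42363816 (2 h) in MCF10A cells and at 42363820 in γTubulinsh-MCF10A cells (1 h), with 62, 45 and 61 reads and scores of 204, 138 and 123. At the place that begins at 42374617 the reads were 50, 50 and 48, and the scores 168, 243 and 65. There the reads were nearly equal and the scores were not. The control was 6.08, 3.40 and 11.6 times the lowest of the list. At other places the γTubulinsh-MCF10A summit lay under another part of a longer MCF10A peak, as at 42365386 against 42365092, at 42391717 against 42391526 and at 42599783 against 42599992 (1 h).

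The numbers were also counted in other ways. In MCF10A cells more peaks were listed at 2 h than at 1 h on both sides under each of the 5 ways of counting, the reported one included. γTubulinsh-MCF10A cells had fewer peaks than MCF10A cells on the long arm side under each of them at both times. At 1 h, however, the numbers were 17 and 18 when neighbours were merged, so that hardly any of the difference in number was left under that setting. The bases covered by the unmerged long arm peaks at 1 h were 3185 bp in γTubulinsh-MCF10A cells and 19813 bp in MCF10A cells. No short arm peak of MCF10A cells at 1 h reached 200 bp, so that a minimum of that length left 0 in both cell populations at 1 h.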

How the data were processed

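γ-Tubulin ChIP-seq and whole cell extract libraries were sequenced by the authors on the Ion Proton, mapped with Bowtie 1.0.0 keeping unique positions, and called with MACS2 2.1.1 (versions from the submitters' processing notes, which also name hg19 and bedtools 2.17.0). The methods name a differential tool with a minimum length of 200 bp, yet the lists hold peaks from 106 bp in the format of calls against a control. Deposited values are the score (10 times −log10 q, cut to a whole number), the fold enrichment (a ratio), −log10 p, −log10 q and the summit. Lists were made from both ChIP libraries of a condition.

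Positions were counted from 1. Reads and control were solved from fold enrichment and Poisson p (tolerance 0.005 in −log10 p), for γTubulinsh-MCF10A cells at 2 h after a scale of 0.943, and tested on simulated data. Reads kept were estimated from the lowest control and the shortest peak of a list, assuming 1 genome size for all lists. Fold enrichments describe peaks within a list.

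The window and groups of peaks were chosen with earlier results of these data known. Named peaks were those in all 4 lists, the 2 highest scores and the longest per side and list, those at the gap and the outer edges, the peak of γTubulinsh-MCF10A cells at 2 h, and the longest runs of 1 list. Highest fold enrichments and places in 3 lists were added after values were seen. Alternatives were a score of at least 85 (the median of the pooled lists), a minimum of 200 bp, merging within 1000 bp, 1 Mb off each window edge, summit or 50% overlap, and distances under 10000 bp. Depth is not given, and the reads of single libraries were not analysed here. Values were computed with pandas 2.3.3, numpy 2.4.6 and scipy 1.17.1 under Python 3.11.15, and plots drawn with matplotlib 3.10.9.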

Additional observations from a re-analysis of the deposited data

Results flagged for a closer look

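From 1 h to 2 h after release, MCF10A cells gained and γTubulinsh-MCF10A cells lost chromosome 10 pericentromere peaks. On the short arm side it changed by 32 in MCF10A cells (38 to 70) and by -1 in γTubulinsh-MCF10A cells (1 to 0). On the long arm side it changed by 36 in MCF10A cells (76 to 112) and by -21 in γTubulinsh-MCF10A cells (22 to 1). The other nuclear peaks changed by 428 and -187. With 1 list per condition, the difference between the cell populations was not tested.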

How the results depend on the processing

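No paired analysis was possible because the 2 libraries of a condition were joined in 1 list and nothing here was tested, and for the same reason no replicate could be left out. Values that moved follow, for MCF10A (1 h, then 2 h) and then γTubulinsh-MCF10A (1 h). With scores of at least 85 the numbers were 12, 35 and 0 on the short arm side and 38, 57 and 4 on the long arm side. A length of at least 200 bp gave 0, 18 and 0, and 37, 70 and 2, with 0 in γTubulinsh-MCF10A cells at 2 h. With 1 Mb off each edge the short arm side had 20, 42 and 0, and the long arm side of MCF10A cells at 2 h had 67. Merging within 1000 bp left 39 short arm peaks at 2 h and 18 and 23 long arm peaks at 1 h and 2 h in MCF10A cells, which turned the order of the sides, since close long arm neighbours join, and left 17 in γTubulinsh-MCF10A cells at 1 h.

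The share of MCF10A 1 h members found at 2 h was 70% with the score limit, 97.3% with the length limit and 73.9% with merging. The share of MCF10A 2 h members found at 1 h was 33.7% with the score limit, 39.8% with the length limit and 59.6% with the trimmed window. The share of γTubulinsh-MCF10A 1 h members found in MCF10A cells was 100% with the length limit, and that of MCF10A 1 h members found in γTubulinsh-MCF10A cells 6% with the score limit and 5.41% with the length limit. Shares with γTubulinsh-MCF10A cells at 2 h fell to 0, in both directions with the score limit for the 1 h list of these cells, and with the length limit for the lists of MCF10A 2 h and γTubulinsh-MCF10A 1 h. Summit and 50% overlap moved no share beyond its 95% binomial interval (exact Clopper-Pearson, counting error only).

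Merging raised the median length to 133.5 and 525.5 bp at 1 h (short and long arm side) and to 223 and 1030 bp at 2 h in MCF10A cells. At 2 h it was 189 bp on the short arm side with the score limit and 290 bp on the long arm side with the trimmed window. The median distance between neighbouring summits moved as well. With the score limit this distance was 8396 bp (short) and 1115 bp (long) at 1 h in MCF10A cells, and 3244.5 and 867.5 bp at 2 h. On the long arm side of γTubulinsh-MCF10A cells at 1 h the distance was 13425 bp. With the length limit it was 1086.5 bp (long, 1 h), 6340 bp (short, 2 h) and 6706 bp (long, γTubulinsh-MCF10A 1 h), with merging 6236 bp (long, 1 h), 3441.5 and 3786.5 bp (short and long, 2 h), and with the trimmed window 603 bp (long, 2 h). The other alternatives, 14 of 34 for numbers, 33 of 46 for shares, 9 of 15 for lengths and 12 of 24 for spacing, gave numbers within 1.5 times the reported one, shares within its binomial interval, and median lengths and spacings within the 95% binomial interval of the reported median. The causes were not tested beyond the removal or joining of peaks that these settings make by construction. A peak under the calling threshold leaves no value, so the limit set by depth is not known.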
